A study of Mus musculus with 18 samples.

Results

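The glycolysis and hypoxia response genes described here are 35 mouse genes chosen by name, out of 54838 genes in the count table. They comprise 1 glucose transporter, 15 glycolytic enzymes, 5 genes of lactate and pyruvate handling, 2 regulators of phosphofructokinase, 3 genes of oxygen sensing and 9 hypoxia-responsive genes. Membership was set by gene name and not by a threshold on a measured value, but the genes were chosen with earlier results of these data known. RNA sequencing was carried out on 18 libraries in 6 conditions, with 3 replicates per condition, to follow neural stem cells as they became astrocytes with or without the inflammatory cytokine tumor necrosis factor (TNF). The cells were primary neural stem cells from the ventricular zone of wild-type C57BL/6J mouse brains at embryonic day 14, grown as neurospheres (NSPs), which are free-floating clusters of proliferating cells. NSPs were kept in serum-free medium with epidermal growth factor (EGF) at 20 ng/ml. All other conditions were adherent cultures in medium with 10% fetal bovine serum in place of the proliferation medium, for 24 h or 72 h without TNF, for 24 h or 72 h with TNF at 50 ng/ml, or for 1 week without TNF. A 1 week culture with TNF was not analysed here. The step from NSPs to any other condition therefore combined differentiation, adhesion, the change of medium and serum, and these cannot be told apart. The study's methods describe isolation from single brains and speak in general of independent biological experiments, but the labels do not tie the 3 libraries of a condition to separate animals or cultures, so the p-values measure the spread between these libraries, which may be technical.

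Glycolysis splits glucose into pyruvate in a chain of enzyme steps, and most steps are served by several isozymes encoded by separate genes. Astrocytes are known as glycolytic cells of the brain that take up glucose from blood vessels and release lactate. When oxygen is scarce, the transcription factor HIF-1, whose regulated subunit is encoded by Hif1a, escapes hydroxylation by the EGLN enzymes and raises the transcription of many glycolytic genes, of the growth factor Vegfa and of genes for adaptation to low oxygen. TNF can act on some of the same genes through other factors.

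HIF-1 binds DNA at short motifs with the core letters ACGTG or GCGTG, and 5 promoters of genes on which the results turn are shown for that reason. The windows are from RefSeq on GRCm38.p6, written 5′ to 3′ on the strand of the gene, and capitals mark ACGTG or GCGTG on either strand (CACGT and CACGC on the strand shown, and CACGTG holds ACGTG on both strands). They lie at chr7:110627407-110627656 on the forward strand for Adm, chr7:46845554-46845803 on the forward strand for Ldha, chr13:6648778-6649021 on the reverse strand for Pfkp, chr3:104638414-104638663 on the forward strand for Slc16a1 and chr4:119108495-119108710 on the forward strand for Slc2a1. The Pfkp window ends 6 bases and the Slc2a1 window 34 bases before the RefSeq start, since exon bases of another transcript were left out, and the other 3 end at the start.
Adm: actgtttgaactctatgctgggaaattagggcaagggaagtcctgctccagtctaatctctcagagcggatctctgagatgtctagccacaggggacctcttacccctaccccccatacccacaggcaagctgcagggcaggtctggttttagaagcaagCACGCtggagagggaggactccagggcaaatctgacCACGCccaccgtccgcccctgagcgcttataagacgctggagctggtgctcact
Ldha: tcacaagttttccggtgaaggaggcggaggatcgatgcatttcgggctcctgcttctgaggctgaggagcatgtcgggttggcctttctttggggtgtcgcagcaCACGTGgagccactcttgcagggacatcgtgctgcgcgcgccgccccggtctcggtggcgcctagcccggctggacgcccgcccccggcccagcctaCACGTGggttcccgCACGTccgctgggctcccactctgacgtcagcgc
Pfkp: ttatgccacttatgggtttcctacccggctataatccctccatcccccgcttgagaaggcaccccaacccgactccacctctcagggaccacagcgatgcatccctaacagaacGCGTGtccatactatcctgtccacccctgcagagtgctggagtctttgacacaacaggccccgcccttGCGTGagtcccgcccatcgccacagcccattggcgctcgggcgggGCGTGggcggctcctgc
Slc16a1: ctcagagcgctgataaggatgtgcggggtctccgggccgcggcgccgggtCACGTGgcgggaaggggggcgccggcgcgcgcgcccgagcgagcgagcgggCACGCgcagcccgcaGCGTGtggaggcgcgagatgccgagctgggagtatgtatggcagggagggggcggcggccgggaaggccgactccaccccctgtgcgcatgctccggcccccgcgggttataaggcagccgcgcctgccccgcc
Slc2a1: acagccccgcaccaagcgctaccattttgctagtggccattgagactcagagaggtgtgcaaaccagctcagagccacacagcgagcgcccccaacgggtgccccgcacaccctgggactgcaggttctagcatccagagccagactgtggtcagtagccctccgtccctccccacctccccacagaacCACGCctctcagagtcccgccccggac

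The Ldha window held 5 matches, the Slc16a1 window 4, the Pfkp window 3, the Adm window 2 and the Slc2a1 window 1. Slc2a1 also had an ACGTG at position -36 from the RefSeq start, which crossed the end of its window and is not marked. Over windows from 250 bases before to 50 bases after each RefSeq start, 34 of the 35 genes were matched, and Ndrg1 is named only. Of their 48 windows, 56.2% held ACGTG on either strand, against 19.6% of 32851 windows of all genes. GCGTG was in 58.3% of the windows of the listed genes and in 32.4% of all windows. At least 1 of both motifs was in 31 of 34 matched genes (91.2%), against 46.7% of 27025 genes. A match is a string of letters and not a measured binding site, and many of these genes are textbook HIF-1 targets.

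Marker genes of the labelled cells were detected in every condition. The summed level of 4 neural stem cell markers (Nes, Sox2, Prom1 and Fabp7) was 3583 to 4889 CPM (counts per 1000000 counts of the TMM-scaled library) in NSPs and 1184 to 1688 CPM at 1 week. The summed level of 4 proliferation markers (Mki67, Top2a, Ccnb1 and Cdk1) was 1322 to 2134 CPM in NSPs, 94.7 to 98.7 CPM at 24 h and 8.22 to 10.3 CPM at 1 week, and the part of cell division in the differences from NSPs was not tested. The 7 astrocyte markers (Gfap, Slc1a3, Slc1a2, Aqp4, Gja1, Aldh1l1 and S100b) summed to 3897 to 4119 CPM in NSPs, 5253 to 7524 CPM at 72 h, 3295 to 4675 CPM at 72 h with TNF and 2466 to 2959 CPM at 1 week, so that their sum was lowest in the cells differentiated longest. Markers of endothelium, microglia and mesenchymal cells summed to no more than 3.80 CPM in any library, with Cdh5, Itgam or Lum at 0 in most conditions. Neuron markers summed to at most 58.9 CPM and oligodendrocyte markers to at most 20.3 CPM. The 4 TNF response genes (Nfkbia, Tnfaip3, Icam1 and Cxcl10) summed to 178 to 228 CPM in the TNF libraries and to 21.3 to 35.1 CPM in all others. Totals per library were 12509693 to 22549627 counts.

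Among the listed genes 3 libraries stood apart from the other replicates of their condition, by a factor of at least 2 on the scale of log2(CPM + 0.5). In replicate 1 at 24 h with TNF, 7 of 34 genes (Eno2, Pfkfb4, Vegfa, Bnip3, Ndrg1, P4ha2 and Adm) lay above both other replicates by that factor, as did 2.22% of all genes. In replicate 1 at 72 h with TNF, Vegfa and P4ha2 did so, with 1.64% of all genes. In replicate 1 of the NSPs, Pfkl, Pdk1, Vegfa and Ddit4 lay below both others, with 2.29% of all genes. No listed gene did so in any of the other 15 libraries. The mitochondrial share of the counts was 6.24% in that 24 h TNF library and 8.01% in that 72 h TNF library, against 2.43% to 3.67% in the other TNF libraries, and 3.09% in the NSP library against 3.00% and 3.40%. The part of what the mitochondrial share reflects in these differences was not tested. Results that rest on these libraries are given with and without them.

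**Figure D1:**
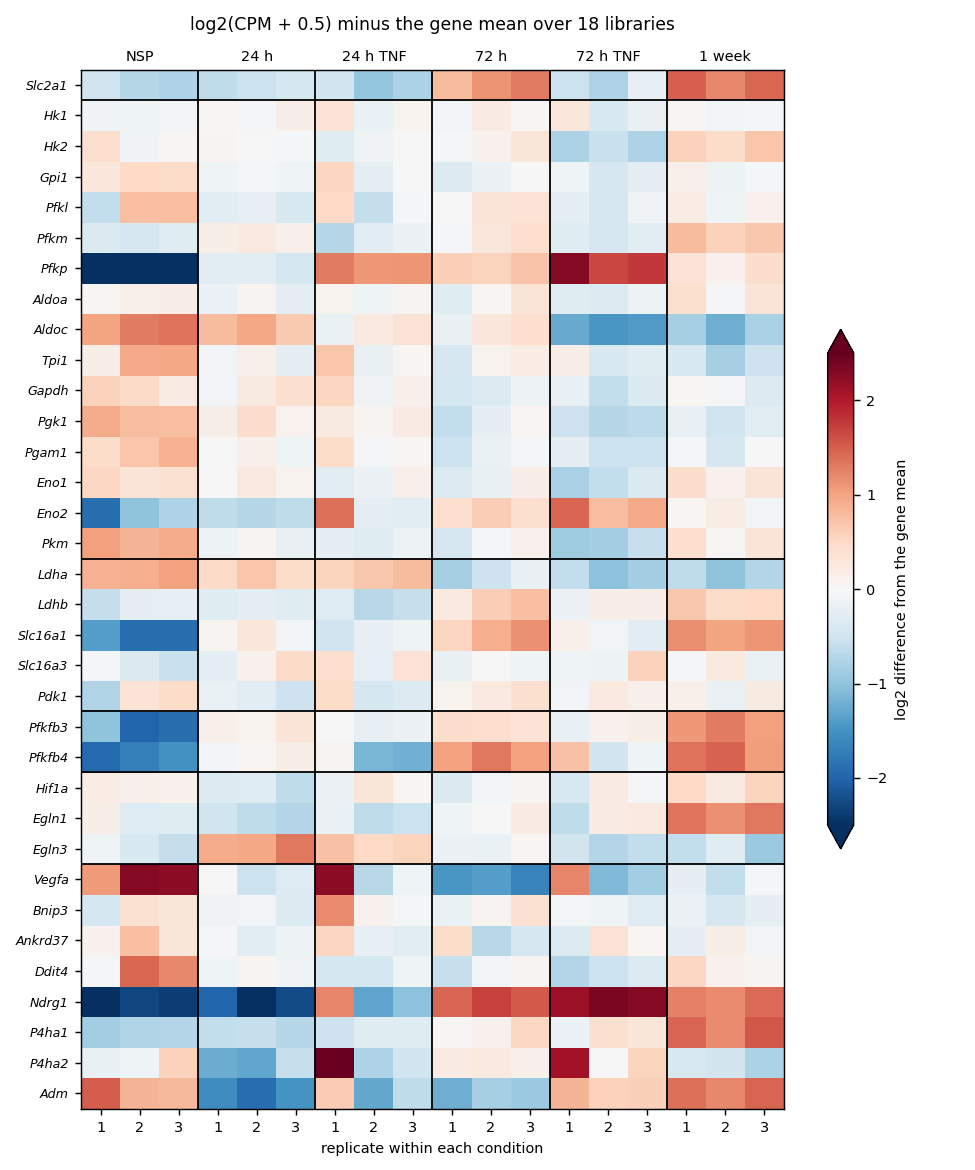
Colour shows log2(CPM + 0.5) minus the mean of the gene over the 18 libraries for the 34 tested genes (rows, grouped by role) in each library (columns, 3 replicates per condition), with colours capped at 2.5 on either side. Replicate 1 at 24 h with TNF lies above the gene mean (red) for Vegfa, Ndrg1, P4ha2 and Adm. Replicates 2 and 3 lie below it for Vegfa, Ndrg1 and Adm, and Pfkp is blue in all 3 NSP libraries.

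Of the 35 genes, 34 were tested. Car9, a carbonic anhydrase known as a strong HIF-1 target, reached at most 0.149 CPM in any library and was listed at 0 in all 3 libraries at 72 h with TNF, so it did not pass the expression filter. A gene is called changed where the adjusted p of edgeR's quasi-likelihood test with Benjamini-Hochberg adjustment over 20067 genes was under 0.05, and the log2 fold changes come from that fit and carry its standard error (SE). Levels are CPM with the 3 replicates in order, and means carry the SD over n = 3. The RNA is from bulk cultures, in which fewer cells of a type and less RNA per cell cannot be told apart. The comparisons of 24 h with NSPs and of 1 week with NSPs share the NSP libraries, and each pair of successive steps shares the libraries in between.

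From NSPs to 24 h of differentiation, 18 of 34 genes changed, 6 up and 12 down, beside a background of 52.7% of all genes tested (27.2% up and 25.5% down). Their median log2 fold change was -0.30, against 0.06 for all genes. The share of changed genes was therefore close to the background, while the rises were in Pfkp, Pfkm, Pfkfb3, Pfkfb4, Slc16a1 and Egln3. The falls were in Gpi1, Pfkl, Tpi1, Pgk1, Pgam1, Pkm, Ldha, Hif1a, Egln1, Vegfa, Ddit4 and Adm. From 24 h to 72 h, 14 of 34 changed, 9 up and 5 down, with a background of 24.8% (12.2% up and 12.6% down). From 72 h to 1 week, 6 of 34 changed, 5 up and 1 down, with a background of 6.63% (2.68% up and 3.96% down). Over the whole course, 1 week against NSPs, 22 of 34 changed, 12 up and 10 down, with a background of 58.6% (29.6% up and 29.1% down), and their median log2 fold change was 0.02 against 0.06 for all genes. The 12 that were higher at 1 week were Slc2a1, Hk2, Pfkm, Pfkp, Eno2, Ldhb, Slc16a1, Pfkfb3, Pfkfb4, Egln1, Ndrg1 and P4ha1, from 1.37-fold for Hk2 to 16.9-fold for Pfkfb4. The 10 that were lower were Gpi1, Aldoc, Tpi1, Gapdh, Pgk1, Pgam1, Pkm, Ldha, Vegfa and Ddit4, from 1.33-fold for Gpi1 to 4.90-fold for Vegfa. Of these 22 calls those of Hk2, Gpi1, Gapdh and Ddit4 were lost without 3, 5, 1 and 4 of the 18 libraries taken singly. The 3 libraries of both conditions did not overlap in 23 of 34 genes from NSPs to 24 h (61.5% of all genes), in 20 from 24 h to 72 h (41.3%), in 14 from 72 h to 1 week (26.9%) and in 24 from NSPs to 1 week (64.6%).

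Slc2a1 (GRCm38 chr4:119108711-119137983, forward strand) encodes GLUT1, the glucose transporter of astrocytes and of the blood-brain barrier. It was at 25.6, 22.1 and 21.1 CPM in NSPs, at 23.3, 24.9 and 26.8 CPM at 24 h, at 63.4, 79.3 and 89.7 CPM at 72 h and at 103.3, 84.6 and 99.2 CPM at 1 week. The NSP and 24 h libraries overlapped, and every library from 72 h on without TNF was above all of them. The rise from 24 h to 72 h was 3.10-fold (log2 1.63, SE 0.17, edgeR adjusted p = 1.49e-06). With TNF it was at 25.9, 18.5 and 20.7 CPM at 24 h and at 24.9, 21.1 and 31.4 CPM at 72 h. All 3 TNF libraries at 72 h lay below the lowest untreated library, and 2 of them were at 21.1 and 24.9 CPM, beside 21.1 to 26.8 CPM over the NSP and untreated 24 h libraries. TNF lowered it 3.01-fold at 72 h (log2 -1.59, SE 0.17, edgeR adjusted p = 5.39e-06), while the log2 difference at 24 h was -0.20 (SE 0.17, edgeR adjusted p = 0.685).

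The effect of TNF on Slc2a1 differed between both times by -1.39 on the log2 scale (SE 0.23, edgeR adjusted p = 0.0114). It was the only one of the 34 genes whose effect of TNF differed between the times by this test, with 0.458% of all genes as background (0.135% up and 0.324% down) and 8 of the 34 at an unadjusted p under 0.05. Without any single library the difference was between -1.55 and -1.21, and the largest adjusted p was 0.0495. Without replicate 1 at 24 h with TNF it was -1.21 (SE 0.22, edgeR adjusted p = 0.0231). With a block for replicate number in which replicate 3 at 72 h was unpaired, it was -1.31 and not called (SE 0.24, edgeR adjusted p = 0.053). The summed level of the 7 astrocyte markers was also lower in the 72 h TNF libraries (3295 to 4675 CPM) than in the untreated ones (5253 to 7524 CPM), and its part in the result was not tested.

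**Figure D2:**
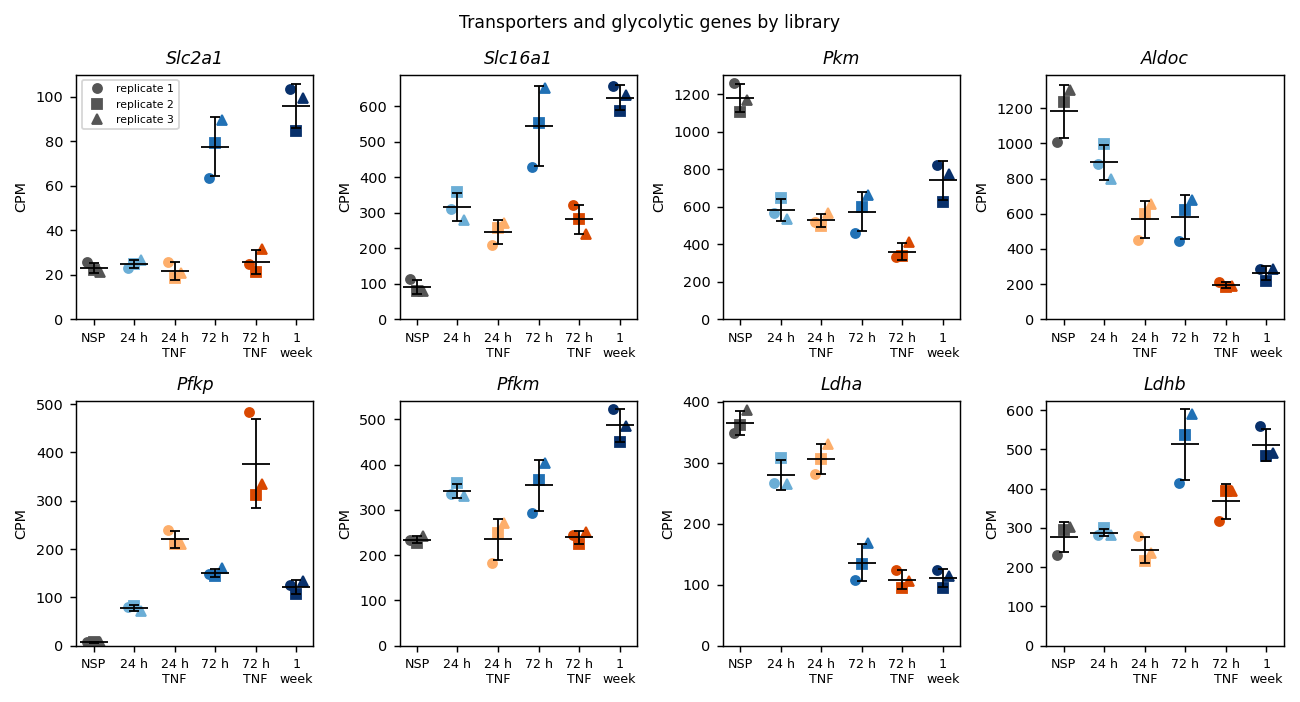
CPM of 8 genes of glucose and lactate transport and glycolysis in each of the 18 libraries by condition (points are libraries, the shape gives the replicate, black bars the mean and SD, n = 3). Slc2a1 is at 63.4 to 89.7 CPM in the untreated 72 h libraries and at 21.1 to 31.4 CPM with TNF, and Pfkp is higher with TNF at both times.

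The next steps of glycolysis are phosphorylation by hexokinase and isomerisation. Hk1, the constitutive brain hexokinase, was called in none of the 7 comparisons, and its condition means were lowest in NSPs (95.1 ± 1.5 CPM) and highest at 24 h with TNF (109.6 ± 20.0 CPM). Hk2, an inducible hexokinase bound to mitochondria, was at 14.8, 16.2 and 18.6 CPM at 72 h and at 8.51, 10.0 and 8.63 CPM at 72 h with TNF. The groups did not overlap, and the fall was 1.82-fold (log2 -0.87, SE 0.16, edgeR adjusted p = 0.00135). At 24 h with TNF it was at 12.0, 14.0 and 14.8 CPM beside 15.7, 15 and 14.5 CPM untreated, and these overlapped. NSPs were at 20.4, 14.1 and 15.4 CPM and 1 week cells at 22.7, 20.8 and 24.6 CPM. Per kb of exon, Hk1 made up 79.6% to 83.4% of the 2 hexokinases at 72 h and 84.4% to 91.0% at 72 h with TNF. Gpi1, glucose phosphate isomerase, was at 376 ± 31.8 CPM before differentiation and fell to 268 ± 7.06 CPM after 24 h, with a log2 change of -0.49 that lost its call without replicate 2 of the NSPs (largest edgeR adjusted p = 0.0518), and 11.5% of its exon bases overlap a gene on the opposite strand, whose reads cannot be told apart here since the strand setting of the counting is not given in the sources used here.

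Phosphofructokinase commits the sugar to glycolysis and has a liver, a muscle and a platelet isozyme. The platelet isozyme gene Pfkp (GRCm38 chr13:6579768-6648777, reverse strand) was at 6.98, 8.07 and 6.71 CPM in NSPs, at 80.0, 81.7 and 71.7 CPM at 24 h, at 148.6, 144.9 and 160.2 CPM at 72 h and at 125.8, 106.0 and 133.5 CPM at 1 week. With TNF it was at 240.1, 209.5 and 211.0 CPM at 24 h and at 482.9, 311.9 and 335.5 CPM at 72 h. Each rise, from NSPs to 24 h to 72 h and from untreated to TNF, separated the libraries without overlap. The rise from NSPs to 24 h was 10.7-fold (log2 3.42, SE 0.17, edgeR adjusted p = 6.14e-11). TNF raised it 2.83-fold at 24 h (log2 1.5, SE 0.15, edgeR adjusted p = 7.04e-06) and 2.49-fold at 72 h (log2 1.32, SE 0.15, edgeR adjusted p = 1.17e-05), and it stayed called without any single library. Without the library that stood apart, the log2 effect of TNF was 1.42 at 24 h and 1.10 at 72 h.

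The muscle isozyme gene Pfkm moved the other way under TNF. It was at 334.5, 359.1 and 331.5 CPM at 24 h and at 183.3, 249.6 and 271.3 CPM at 24 h with TNF, and at 293.3, 365.9 and 402.7 CPM at 72 h and at 243.5, 223.9 and 250.3 CPM at 72 h with TNF. The groups did not overlap at either time. NSPs were at 233, 226 and 243 CPM and 1 week cells at 524, 451 and 485 CPM. Its log2 change with TNF was -0.54 (SE 0.14, edgeR adjusted p = 0.0353) at 24 h and -0.56 (SE 0.14, edgeR adjusted p = 0.0138) at 72 h. The first call was lost without replicate 1 at 24 h with TNF (log2 -0.41, edgeR adjusted p = 0.111), without any 1 of the 3 untreated 24 h libraries and without replicate 2 at 72 h, with log2 values of -0.66 to -0.41 over all libraries left out in turn. The second was lost without replicate 2 or 3 at 72 h or replicate 2 at 72 h with TNF, with values of -0.69 to -0.46, and when only the groups compared were fitted (log2 -0.53, edgeR adjusted p = 0.0503). From 72 h to 1 week the log2 difference of Pfkm was 0.46 (edgeR adjusted p = 0.0555), which DESeq2 called (DESeq2 adjusted p = 0.0264). The liver isozyme gene Pfkl was called from NSPs to 24 h, from 45.2, 117.6 and 118.5 CPM to 58.2, 60.4 and 53.5 CPM, with the first NSP library below all 24 h libraries and the other 2 above them. Its log2 change was -0.71 (SE 0.28, edgeR adjusted p = 0.0394) with that library and -1.04 without it. The call was lost without either of the other NSP libraries or any 24 h library, and the smallest change was -0.51. From NSPs to 1 week the change was -0.36 with all libraries (edgeR adjusted p = 0.275) and was called without that library (log2 -0.69, edgeR adjusted p = 0.0103).

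Shares of the 3 isozymes per kb of exon put these changes on 1 scale within a library. Pfkp made up 0.551% to 0.701% of the 3 in NSPs, 4.75% to 5.20% at 24 h, 8.10% to 10.1% at 72 h and 5.18% to 5.99% at 1 week. With TNF its share was 14.7% to 20.4% at 24 h and 22.8% to 30.6% at 72 h. Pfkm remained the major isozyme in every library, from 61.9% to 90.6%. The exons of Pfkp span 13401 bases in the annotation and those of Pfkm 3340, so that these shares depend on the annotated lengths, and which transcript forms were present was not tested.

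Pfkfb3 and Pfkfb4 encode enzymes that set the level of fructose 2,6-bisphosphate, an activator of phosphofructokinase. Pfkfb3 went from 30.3, 15 and 16.2 CPM in NSPs to 66.4, 64.9 and 75.9 CPM at 24 h (log2 1.75, SE 0.20, edgeR adjusted p = 8.17e-07) and was at 130.7, 149.0 and 125.1 CPM at 1 week. Pfkfb4 was at 0.254, 0.384 and 0.512 CPM in NSPs, at 2.27, 2.52 and 2.69 CPM at 24 h, at 5.30, 6.69 and 5.28 CPM at 72 h and at 6.89, 7.56 and 5.49 CPM at 1 week. Its rise to 24 h was 6.33-fold (log2 2.66, SE 0.48, edgeR adjusted p = 0.000158). The further rise of Pfkfb4 to 72 h (log2 1.21) lost its call without any 24 h library or replicate 2 at 72 h, with values of 1.09 to 1.27, and that of Pfkfb3 from 72 h to 1 week (log2 0.74) without replicate 1 or 2 at 1 week or replicate 2 or 3 at 72 h, with values of 0.67 to 0.80. With TNF, Pfkfb4 was at 2.52, 0.820 and 0.767 CPM at 24 h, where replicate 1 lay inside the untreated range and the others below it, and at 4.28, 1.57 and 2.19 CPM at 72 h. Without replicate 1 the log2 effect of TNF on Pfkfb4 was -1.66 at 24 h (SE 0.40, edgeR adjusted p = 0.0352) and, without replicate 1 at 72 h, -1.61 at 72 h (SE 0.38, edgeR adjusted p = 0.0113). With all libraries these effects were -0.85 (edgeR adjusted p = 0.365) and -1.10 (edgeR adjusted p = 0.0622), and DESeq2 called the latter (log2 -1.10, DESeq2 adjusted p = 0.0307).

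Aldolase splits the phosphorylated sugar, and Aldoc is the isozyme gene of astrocytes in brain. Aldoc (GRCm38 chr11:78322968-78327781, forward strand) was at 1010, 1232 and 1301 CPM in NSPs, at 880, 997 and 796 CPM at 24 h, at 444, 621 and 679 CPM at 72 h and at 284, 218 and 289 CPM at 1 week. With TNF it was at 451, 598 and 653 CPM at 24 h and at 213, 184 and 190 CPM at 72 h. Each later untreated stage lay below the one before without overlap, and each TNF group lay below its untreated group. The first of these steps, to 24 h, was not called in edgeR (log2 -0.41, edgeR adjusted p = 0.0551), but it was in DESeq2 (log2 -0.44, DESeq2 adjusted p = 0.0352) and, without replicate 1 of the NSPs, in edgeR (log2 -0.51, edgeR adjusted p = 0.0288). The second, to 72 h, was called (log2 -0.62, SE 0.17, edgeR adjusted p = 0.0131) and was lost without replicate 2 at 24 h or replicate 1 at 72 h, with values of -0.74 to -0.45. TNF lowered it 2.98-fold at 72 h (log2 -1.57, SE 0.18, edgeR adjusted p = 1.31e-05), to a level below the 218 to 289 CPM of 1 week cells without TNF. The fall with TNF at 24 h (log2 -0.65, SE 0.17, edgeR adjusted p = 0.0417) lost its call without any 1 of 12 of the 18 libraries, among them replicate 1 at 24 h with TNF (log2 -0.53, edgeR adjusted p = 0.151). The libraries without which it held were replicate 1 of the NSPs, replicate 3 at 24 h with TNF, replicates 1 and 3 at 72 h, replicate 1 at 72 h with TNF and replicate 2 at 1 week, and the values ranged from -0.77 to -0.53. The log2 effect of TNF at 72 h minus that at 24 h was -0.92 (edgeR adjusted p = 0.122), which DESeq2 called (log2 -0.92, DESeq2 adjusted p = 0.0378). From 72 h to 1 week Aldoc fell by 1.14 on the log2 scale (SE 0.18, edgeR adjusted p = 0.000485).

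Aldoa, the ubiquitous isozyme, was called in no comparison, with condition means of 384 ± 30.9 to 538 ± 86.1 CPM. Per kb of exon, Aldoc made up 65.7% to 69.3% of both in NSPs, 51.5% to 53.8% at 72 h, 28.8% to 33.9% at 72 h with TNF and 29.6% to 31.1% at 1 week. The major aldolase transcript was thus Aldoc in NSPs and Aldoa at 1 week and at 72 h with TNF. The annotation gives the name Aldoa to a second, adjacent gene (ENSMUSG00000114515), which was not counted among the 35 and was lower than in NSPs at 24 h (log2 -1.08, edgeR adjusted p = 0.00545) and at 1 week (log2 -1.08, edgeR adjusted p = 0.0036).

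**Figure D3:**
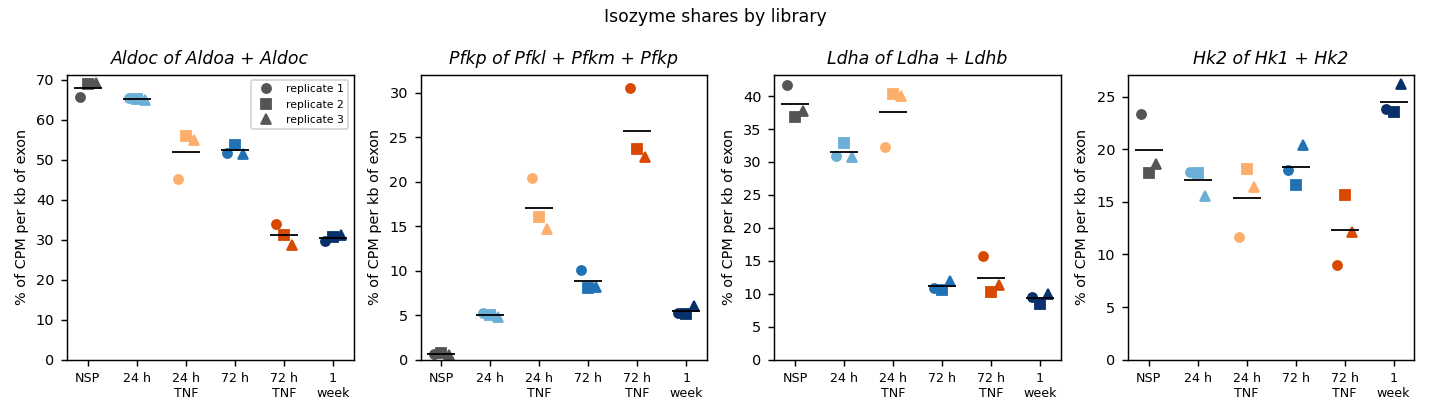
Share of 1 isozyme in the summed CPM per kb of exon of its set, in percent, for each library by condition (points are libraries, the shape gives the replicate, black bars the mean). Aldoc goes from 65.7% to 69.3% in NSPs to 29.6% to 31.1% at 1 week, and Pfkp is at 22.8% to 30.6% at 72 h with TNF.

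The later glycolytic enzymes convert triose phosphate to pyruvate. Tpi1, Pgk1 and Pgam1 fell from NSPs to 24 h by 0.79, 0.58 and 0.67 on the log2 scale, and Pgk1 fell again by 0.48 from 24 h to 72 h. Gapdh was not called at 24 h, where its libraries overlapped the NSPs, and fell by 0.50 from 24 h to 72 h (edgeR adjusted p = 0.0409). The later fall of Pgk1 lost its call without replicate 2 at 24 h or replicate 1 or 2 at 72 h, with values of -0.65 to -0.32, and that of Gapdh without replicate 2 or 3 at 24 h, 1 or 2 at 72 h or 3 at 72 h with TNF, with values of -0.61 to -0.37. None of these 4 enzymes was called with TNF at either time, and edgeR called Eno1, the major enolase, in no comparison. At 72 h with TNF its log2 change was -0.49 (SE 0.15, edgeR adjusted p = 0.0529), which DESeq2 called (log2 -0.49, DESeq2 adjusted p = 0.0298). Eno2, the enolase of neurons, was at 3.10, 2.91 and 3.10 CPM at 24 h and at 7.04, 8.16 and 6.93 CPM at 72 h, a 2.43-fold rise (log2 1.28, SE 0.40, edgeR adjusted p = 0.0225) while the summed neuron markers were lower at 72 h (9.88 to 10.8 CPM) than at 24 h (34.8 to 44.1 CPM). That rise lost its call without any 24 h library or replicate 2 at 72 h, with values of 1.20 to 1.33. Eno2 was at 1.01, 2.31 and 2.79 CPM in NSPs, at 5.30, 5.86 and 4.86 CPM at 1 week, at 14.1, 4.33 and 4.13 CPM at 24 h with TNF and at 14.9, 9.11 and 10.3 CPM at 72 h with TNF. Its log2 difference with TNF at 24 h was 1.31 (edgeR adjusted p = 0.0814), which DESeq2 called (log2 1.31, DESeq2 adjusted p = 0.0221), and it was 0.46 without replicate 1 with TNF (edgeR adjusted p = 0.634). Many of these enzymes have processed pseudogenes, and how reads that fit several genes were counted is not given in the sources used here.

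Pkm, pyruvate kinase, made the last step. It was at 1258, 1108 and 1169 CPM in NSPs and at 566, 645 and 537 CPM at 24 h, with no overlap and a fall of 2.02-fold (log2 -1.01, SE 0.15, edgeR adjusted p = 1.75e-05). At 72 h it was at 459, 598 and 664 CPM untreated and at 331, 340 and 413 CPM with TNF. The TNF libraries were all below the lowest untreated one (log2 -0.67, SE 0.15, edgeR adjusted p = 0.00601). This call held without any single library. It was lost with a block for replicate number in which replicate 3 at 72 h was unpaired (log2 -0.58, edgeR adjusted p = 0.0613). At 24 h with TNF Pkm was at 519, 499 and 566 CPM, overlapping the untreated libraries, and at 1 week at 825, 624 and 773 CPM. In 15.3% of its exon bases Pkm overlaps another gene on the same strand.

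Pyruvate is turned into lactate and back by lactate dehydrogenase, whose A subunit favours lactate and whose B subunit favours pyruvate. Ldha was at 348, 362 and 387 CPM in NSPs, at 266, 308 and 264 CPM at 24 h, at 107, 134 and 168 CPM at 72 h and at 124, 94.7 and 115 CPM at 1 week. Its fall to 24 h (log2 -0.39, edgeR adjusted p = 0.0394) lost its call without replicate 2 or 3 of the NSPs, 1 or 3 at 24 h or 2 at 24 h with TNF, with values of -0.45 to -0.35. It fell 2.05-fold from 24 h to 72 h (log2 -1.04, SE 0.15, edgeR adjusted p = 6.84e-05). Ldhb was at 283, 299 and 282 CPM at 24 h and at 413, 538 and 590 CPM at 72 h, a rise of 1.78-fold (log2 0.83, SE 0.15, edgeR adjusted p = 0.000405). Both genes moved in opposite directions at that step, without overlap of the groups. Ldhb was at 232, 294 and 302 CPM in NSPs, at 280.3, 216 and 235.1 CPM at 24 h with TNF and at 559, 483 and 492 CPM at 1 week. Per kb of exon, Ldha made up 36.8% to 41.6% of both in NSPs, 30.8% to 32.8% at 24 h, 10.6% to 11.9% at 72 h and 8.51% to 9.99% at 1 week. Under TNF at 72 h, Ldhb was at 317, 394 and 394 CPM, all below the untreated libraries (log2 -0.48, SE 0.15, edgeR adjusted p = 0.0464), but this call was lost without any 1 of 15 of the 18 libraries, all but replicate 1 of the NSPs, of 24 h with TNF and of 72 h, with values of -0.62 to -0.37. With TNF, Ldha was at 281, 306 and 331 CPM at 24 h and at 124, 94.5 and 106 CPM at 72 h. The log2 effect of TNF on Ldha was 0.13 at 24 h and -0.33 at 72 h, and neither was called.

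Lactate and pyruvate cross the membrane through MCT1, encoded by Slc16a1, and MCT4, encoded by Slc16a3. Slc16a1 (GRCm38 chr3:104638668-104658462, forward strand) was at 113.4, 79.4 and 78.9 CPM in NSPs, at 310.1, 358.3 and 279.6 CPM at 24 h, at 428, 554 and 652 CPM at 72 h and at 657, 586 and 631 CPM at 1 week. It rose 3.49-fold to 24 h (log2 1.80, SE 0.18, edgeR adjusted p = 1.97e-07) and a further 1.72-fold to 72 h (log2 0.79, SE 0.17, edgeR adjusted p = 0.00241). With TNF it was at 208, 256 and 272 CPM at 24 h and at 323, 282 and 240.1 CPM at 72 h. All TNF libraries were below the untreated ones at both times, with a log2 effect of -0.36 at 24 h (SE 0.17, edgeR adjusted p = 0.359) and of -0.95 at 72 h (SE 0.17, edgeR adjusted p = 0.00132). The difference between both effects, -0.59, was not called (edgeR adjusted p = 0.418). Slc16a3 was at 2.10 to 5.19 CPM over all libraries and was called in no comparison, and Slc16a1 made up 97.5% or more of both per kb of exon. Pdk1, a kinase that closes the entry of pyruvate into mitochondria, was called in no comparison with all libraries, and without replicate 1 of the NSPs it fell to 24 h by 0.72 (SE 0.21, edgeR adjusted p = 0.00904).

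The oxygen-sensing genes include Hif1a and the prolyl hydroxylases Egln1 and Egln3, which mark HIF subunits for degradation. Hif1a was at 335, 321 and 319 CPM in NSPs, at 232, 238 and 191 CPM at 24 h, at 230.2, 281 and 309 CPM at 72 h and at 417, 347 and 437 CPM at 1 week. It fell to 24 h by 0.56 on the log2 scale (SE 0.16, edgeR adjusted p = 0.00629) and was higher at 1 week than at 72 h by 0.55 (SE 0.16, edgeR adjusted p = 0.0418), a call that was lost without replicate 1 or 3 at 1 week, 1 or 2 at 72 h, 1 at 24 h, 3 at either time with TNF, or 2 or 3 of the NSPs, with values of 0.44 to 0.65. Its log2 difference with TNF at 24 h was 0.51 (SE 0.16, edgeR adjusted p = 0.0949), with the groups not overlapping, and at 72 h it was 0.05. Egln1 was at 60.6, 55.3 and 51.7 CPM at 24 h, at 80.3, 85.5 and 98.6 CPM at 72 h and at 217, 192 and 214 CPM at 1 week, and the rise from 72 h to 1 week was 2.35-fold (log2 1.24, SE 0.19, edgeR adjusted p = 0.000613). Its fall from 95.5, 68.4 and 69.9 CPM in NSPs to 24 h (log2 -0.48) lost its call without any 24 h library, replicate 1 of the NSPs (log2 -0.31, edgeR adjusted p = 0.209), replicate 2 or 3 at 24 h with TNF, 2 at 72 h or 1 or 3 at 1 week. Its rise from 24 h to 72 h (log2 0.66) lost its call without replicate 3 of either time, with values of 0.57 to 0.72.

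Egln3 showed a peak at 24 h. It was at 8.63, 7.08 and 5.97 CPM in NSPs, at 18.1, 18.7 and 23.9 CPM at 24 h and at 8.40, 8.28 and 9.52 CPM at 72 h. All 3 libraries at 24 h lay above all others of both neighbouring stages, with a log2 rise of 1.48 (SE 0.19, edgeR adjusted p = 4.07e-06) and a fall of 1.21 (SE 0.19, edgeR adjusted p = 0.000114). With TNF, Egln3 was at 15.8, 13.3 and 13.9 CPM at 24 h and at 6.65, 5.397 and 5.94 CPM at 72 h, and at 1 week without TNF at 5.92, 7.51 and 4.65 CPM. Egln1 was at 76.3, 55.0 and 58.7 CPM at 24 h with TNF and at 55.3, 99.7 and 101.5 CPM at 72 h with TNF. None of the 3 oxygen-sensing genes was called with TNF at either time, and 2 of them were at an unadjusted p under 0.05 at 24 h and 1 at 72 h. Protein hydroxylation and HIF-1 protein were not measured.

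Of the 8 tested hypoxia-responsive genes, Vegfa, Ddit4 and Adm fell from NSPs to 24 h and none rose (37.5% called, against 52.7% of all genes called and 25.5% lower). Adm (GRCm38 chr7:110627661-110629820, forward strand) encodes the vasodilator peptide adrenomedullin. It was at 18.6, 11.5 and 11.1 CPM in NSPs, at 1.74, 1.29 and 1.87 CPM at 24 h, at 2.35, 3.25 and 3.03 CPM at 72 h and at 16.9, 14.7 and 17.7 CPM at 1 week. The fall was 8.48-fold (log2 -3.08, SE 0.39, edgeR adjusted p = 4.18e-06) and the later rise from 72 h to 1 week 5.67-fold (log2 2.5, SE 0.37, edgeR adjusted p = 0.000334). The levels of NSPs and 1 week cells overlapped, so that Adm was lowest at 24 h and 72 h.

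Under TNF, Adm was at 9.89, 2.24 and 3.77 CPM at 24 h and at 11.5, 9.46 and 9.64 CPM at 72 h. At 72 h all 3 libraries lay above the untreated ones without overlap (log2 1.82, SE 0.37, edgeR adjusted p = 0.00291), and the log2 effect without replicate 1 was 1.73 (SE 0.39, edgeR adjusted p = 0.00985). At 24 h the log2 effect was 1.72 (SE 0.40, edgeR adjusted p = 0.0195) with all libraries and 0.90 (SE 0.30, edgeR adjusted p = 0.158) without replicate 1, and the call was also lost without any 1 of the 3 untreated 24 h libraries and when only the groups compared were fitted. Over all libraries left out in turn the effect was 0.90 to 2.07. The difference between both effects was 0.10 (edgeR adjusted p = 0.964).

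Vegfa encodes the growth factor of blood vessels. It was at 39.7, 95 and 90.6 CPM in NSPs and at 18.7, 12.8 and 14.9 CPM at 24 h, a fall of 4.87-fold (log2 -2.28, SE 0.64, edgeR adjusted p = 0.00579), and without the first NSP library the log2 change was -2.59. At 72 h it was at 6.58, 6.93 and 5.61 CPM and at 1 week at 15.9, 12.1 and 18.2 CPM. With TNF it was at 90.6, 11.5 and 17.5 CPM at 24 h and at 44.4, 8.47 and 10.1 CPM at 72 h. In both TNF groups replicate 1 was more than 4 times the next library, and neither effect was called, with a log2 difference of 1.37 (SE 0.63, edgeR adjusted p = 0.332) at 24 h and of 1.72 (SE 0.66, edgeR adjusted p = 0.11) at 72 h. Without replicate 1 these were -0.10 and 0.55.

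Ndrg1, a stress-responsive gene of differentiated cells, rose late. It was at 1.59, 2.36 and 2.22 CPM in NSPs, at 3.02, 1.73 and 2.44 CPM at 24 h, at 37.5, 45.0 and 39.4 CPM at 72 h and at 32.7, 31.1 and 36.3 CPM at 1 week. The rise from 24 h to 72 h was 17.1-fold (log2 4.10, SE 0.50, edgeR adjusted p = 9.41e-06). With TNF at 24 h it was at 31.8, 5.07 and 6.31 CPM, all above the untreated libraries, and replicate 1 was more than 5 times the next. The log2 effect was 2.61 (SE 0.50, edgeR adjusted p = 0.00493) with all libraries and 1.25 (SE 0.22, edgeR adjusted p = 0.00265) without replicate 1, and the call held without any single library. It was lost when only the groups compared were fitted. At 72 h with TNF it was at 60.7, 69.9 and 67.4 CPM, above every untreated library but not called (log2 0.70, SE 0.40, edgeR adjusted p = 0.293).

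Ddit4, an inhibitor of mTOR signalling, was at 56.3, 156.5 and 133.1 CPM in NSPs and at 53.1, 60.1 and 53.9 CPM at 24 h, so that the first NSP library lay inside the range at 24 h. Its log2 change was -1.05 (SE 0.26, edgeR adjusted p = 0.00258) with that library and -1.38 without it. It was at 38.2, 54.5 and 60.0 CPM at 72 h and at 82.5, 61.4 and 59.8 CPM at 1 week, and with TNF at 42.4, 42.2 and 53.1 CPM at 24 h and at 34.1, 39.2 and 45.4 CPM at 72 h. P4ha1, which hydroxylates collagen, was at 107, 109 and 100.1 CPM at 24 h, at 168, 176 and 234 CPM at 72 h and at 449, 373 and 479 CPM at 1 week. It rose in both later steps, by 0.86 to 72 h (SE 0.15, edgeR adjusted p = 0.000373) and by 1.17 to 1 week (SE 0.15, edgeR adjusted p = 0.000101). P4ha1 was at 89.2, 97.4 and 98.1 CPM in NSPs, at 114, 133 and 133 CPM at 24 h with TNF and at 147, 217 and 203 CPM at 72 h with TNF. Its paralog P4ha2 was at 6.99, 0.298 and 0.472 CPM at 24 h with TNF and at 5.35, 0.871 and 1.5 CPM at 72 h with TNF, so that replicate 1 was far above the others at both times, and edgeR called it in no comparison in the fit to all conditions. DESeq2 called the fall of P4ha2 from NSPs to 24 h (log2 -2.57, DESeq2 adjusted p = 0.0448, beside -2.56 and 0.0893 in edgeR) and its rise with TNF at 24 h (log2 3.91, DESeq2 adjusted p = 0.0151, beside 3.93 and 0.0633 in edgeR), and without replicate 1 with TNF that rise was 1.21 (edgeR adjusted p = 0.741).

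Bnip3, a mitophagy receptor, was at 34.8, 16.2 and 14.7 CPM at 24 h with TNF and between 10.9 and 19.9 CPM in all other libraries, and Ankrd37 was at 0.552 to 2.36 CPM throughout. Neither was called in any comparison. Of their exon bases 22.3% for Bnip3 and 26.4% for Ankrd37 overlap genes on the opposite strand.

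**Figure D4:**
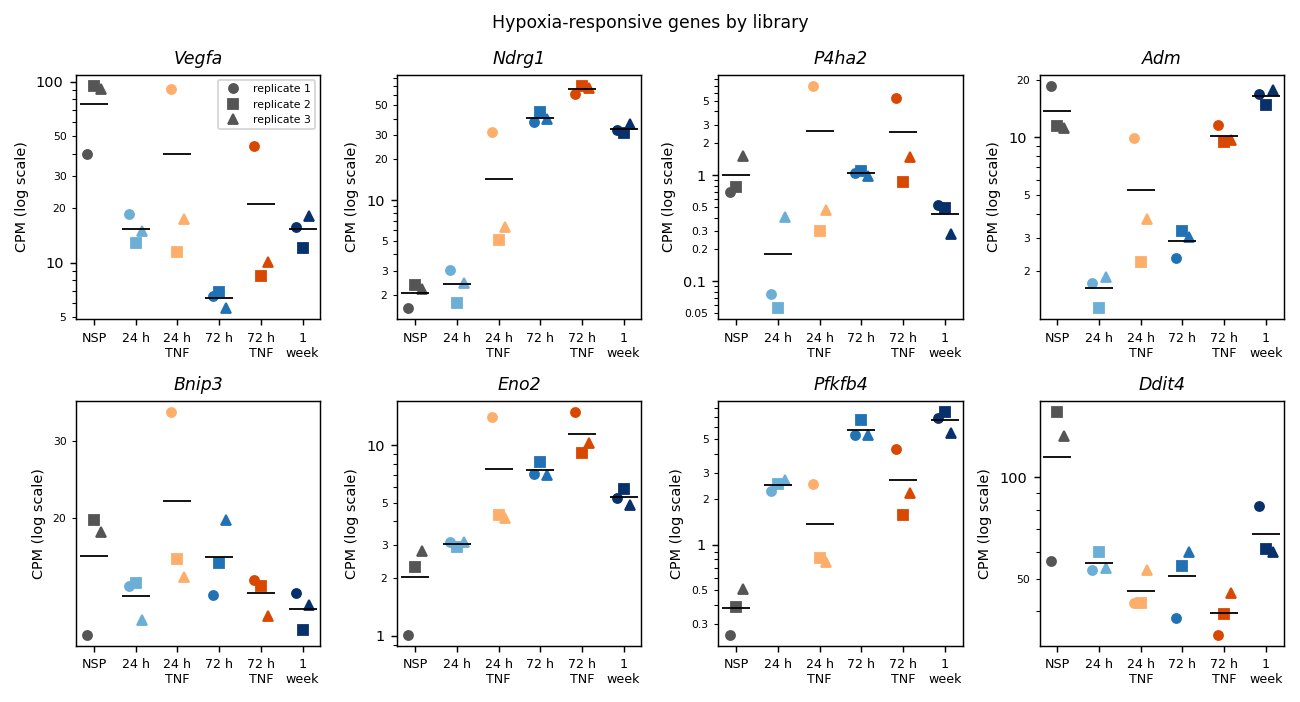
CPM on a log scale of 8 genes, most of them hypoxia-responsive, in each library by condition (points are libraries, the shape gives the replicate, black bars the mean). The circle for replicate 1 at 24 h with TNF lies above replicates 2 and 3 for Vegfa (90.6 against 11.5 and 17.5 CPM), Ndrg1, P4ha2, Adm, Bnip3, Eno2 and Pfkfb4.

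Set against untreated cells of the same time, TNF changed 5 of 34 genes at 24 h, 3 up (Pfkp, Ndrg1 and Adm) and 2 down (Pfkm and Aldoc), with a background of 3.5% of all genes (2.18% up and 1.32% down). Without replicate 1 at 24 h with TNF, 3 genes were called, namely Pfkp and Ndrg1 up and Pfkfb4 down. Over all genes the calls then went from 703 to 474. At 72 h TNF changed 9 of 34, 2 up (Pfkp and Adm) and 7 down (Slc2a1, Hk2, Pfkm, Aldoc, Pkm, Ldhb and Slc16a1), with a background of 9.56% (4.35% up and 5.21% down). Without replicate 1 at 72 h with TNF the count was also 9, with Pfkfb4 in place of Ldhb. Over all genes the calls then went from 1919 to 1371. The median log2 effect over the 34 genes was 0.12 at 24 h and -0.24 at 72 h, against -0.01 for all genes at both times. Without replicate 1 at 24 h with TNF the 24 h median turned to -0.09, with 11 of 34 genes above 0 in place of 21 (median of all genes -0.03), and without replicate 1 at 72 h with TNF the 72 h median was -0.29. Treated and untreated libraries did not overlap in 13 of 34 genes at 24 h (20.8% of all genes) and in 17 at 72 h (26.2%). By role, the genes called at 72 h were the glucose transporter, 5 of 15 glycolytic enzymes, 2 of 5 lactate and pyruvate genes, 0 of 2 phosphofructokinase regulators, 0 of 3 oxygen-sensing genes and 1 of 8 hypoxia-responsive genes, and differences between roles were not tested.

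**Figure D5:**
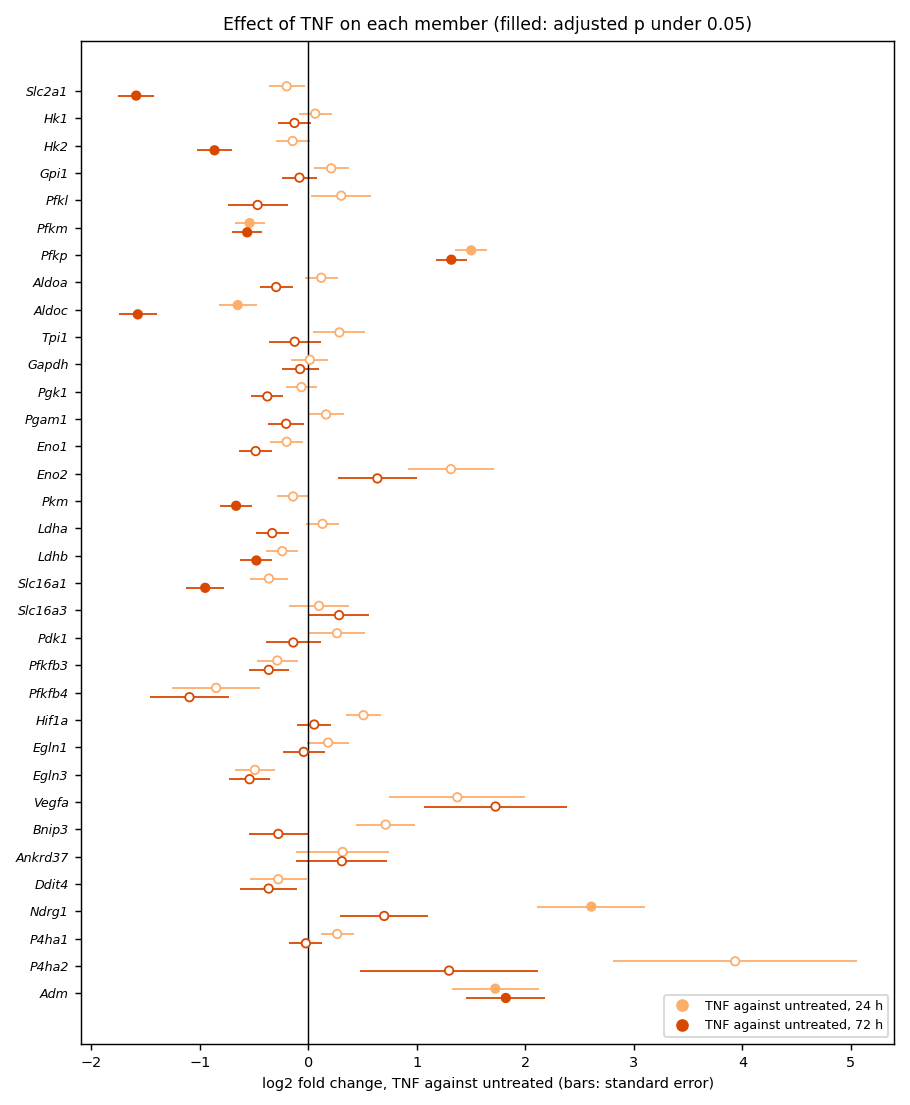
Log2 fold change with TNF against untreated cells of the same time for the 34 tested genes (points, with the standard error as bars; filled points have an adjusted p under 0.05). At 72 h Slc2a1 (-1.59) and Aldoc (-1.57) lie farthest to the left and Adm (1.82) and Pfkp (1.32) are the filled points to the right.

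Other genes of the same pathways were counted from lists chosen by name. Of 31 tested genes of glucose uptake and pyruvate oxidation outside the 35, 15 changed from NSPs to 24 h, 6 up and 9 down, and 18 from NSPs to 1 week, 8 up and 10 down. These shares, 48.4% and 58.1%, were no higher than the 52.7% and 58.6% of all genes. Pdp1, a phosphatase that switches on pyruvate dehydrogenase, rose by 2.13 to 24 h (edgeR adjusted p = 3.91e-07), and Slc2a4, the insulin-sensitive glucose transporter, by 2.08 (edgeR adjusted p = 0.000289), whereas the pyruvate dehydrogenase subunit gene Dlat fell by 0.89 (edgeR adjusted p = 7.35e-05). With TNF none of the 31 was called at 24 h (3 at an unadjusted p under 0.05, and 3.5% of all genes called), and 2 fell at 72 h (6.5%, against 9.56% of all genes). These were Slc2a4 (log2 -1.50, edgeR adjusted p = 0.0192), which was not called without replicate 1 at 72 h with TNF (log2 -1.37, edgeR adjusted p = 0.0782), and Bsg, the chaperone of MCT1 (log2 -0.77, edgeR adjusted p = 0.00292). Of 8 genes of the pentose phosphate pathway, which branches from glycolysis, 5 fell and none rose to 24 h (62.5% called, against 52.7% of all genes called and 25.5% lower), and none was called with TNF (0 at an unadjusted p under 0.05 at 24 h and 2 at 72 h).

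Of 11 tested genes of the HIF machinery, 5 rose and 2 fell to 24 h (63.6%, against 52.7% of all genes). None was called with TNF at 24 h (0 at an unadjusted p under 0.05, and 3.5% of all genes called). With TNF at 72 h 1 was called (9.1%, against 9.56% of all genes). This was Vhl, the subunit that recognises hydroxylated HIF, which fell by 0.74. Of 33 further tested targets of hypoxia, 5 rose and 8 fell to 24 h (39.4%, against 52.7% of all genes). Without replicate 1 of the NSPs 19 of the 33 were called, while over all genes the calls went from 10576 to 10219. The largest falls were in Tfrc, the transferrin receptor (log2 -2.19, edgeR adjusted p = 4.35e-06), the growth factor Pgf (log2 -1.95, edgeR adjusted p = 0.000627) and Hilpda, a lipid droplet protein (log2 -1.94, edgeR adjusted p = 1.34e-05). With TNF 3 rose at 24 h (Maff, Hmox1 and Klf6) and 2 fell (Ak4 and Plod1), while at 72 h 1 rose (Klf6) and 4 fell (Ak4, Ppp1r3c, Plod1 and Higd1a), 15.2% of the 33 at either time beside 3.5% and 9.56% of all genes. Ak4, a mitochondrial adenylate kinase, fell at both times, by 0.98 (edgeR adjusted p = 0.00023) and by 1.18 (edgeR adjusted p = 1.35e-05). Without replicate 1 at 24 h with TNF, the rise of Hmox1 was not called (log2 0.89, edgeR adjusted p = 0.0949) and a fall of Ppp1r3c was (log2 -0.86, edgeR adjusted p = 0.0462). The median log2 effect of TNF over the 33 was 0.25 at 24 h and -0.16 at 72 h, and without replicate 1 with TNF of the same time it was 0.08 and -0.18. In that 24 h library 3 of the 33, Ero1l, Angptl4 and Flt1, lay above both other replicates by a factor of at least 2.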

How the data were processed

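RNA sequencing counts of 18 libraries in 6 conditions were analysed. The authors extracted total RNA with TRIzol, depleted it of ribosomal RNA and made stranded libraries, which were read as 75 bp paired ends. Per the study's methods, reads were trimmed with Trim Galore, aligned to the transcriptome with STAR, sorted with Samtools and counted with featureCounts, and the authors deposited raw counts per gene. The submitters' processing notes name mm10; versions of these tools, annotation, strand setting and the treatment of multi-mapping reads are not given in the sources used here. Their own tests used DESeq2. RNA quality is given as a wide range over the study that includes low scores, and not per library. Its part in the differences between libraries was not tested.

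Groups came from the labels. The table column of replicate 3 at 72 h carries the number 4 and was matched by its sequencing index. Symbols and positions came from GENCODE M21, which held 54809 of 54838 identifiers. Totals ranged from 12509693 to 22549627 counts (median 16794798); without molecular identifiers, depth covers counting error only. Replicates of a condition differed by more than sampling noise in every pair (chi-square per degree of freedom 4.08 to 62.7).

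edgeR 4.0.16 (limma 3.58.1, R 4.3.3) gave TMM factors, its filter by condition kept 20067 genes, and 1 quasi-likelihood fit of condition means to all 18 libraries tested 6 differences and the interaction of TNF with time. P-values were adjusted by Benjamini-Hochberg and called under 0.05, at a biological coefficient of variation of 0.18. SE is the log2 fold change divided by the square root of F. The fit was tested on simulated data. CPM used TMM-scaled library sizes. Alternatives were DESeq2 1.42.0, other normalization and filters, single comparisons, a log2 change of at least 1, a replicate block and leaving out libraries. Values in every library are given for genes called with TNF and for the 3 called genes that moved farthest up and down in the steps from NSPs to 24 h, 72 h and 1 week; other values were chosen after they were seen. The genes, lists and tests were chosen with earlier results of these data known.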

Additional observations from a re-analysis of the deposited data

Results flagged for a closer look

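Slc2a1 was picked out because the effect of TNF on it differed between both times. The log2 effect at 72 h minus that at 24 h was -1.39 (SE 0.23, edgeR adjusted p = 0.0114). The call was lost with a block for replicate number in which replicate 3 at 72 h was unpaired (edgeR adjusted p = 0.053). The 3 TNF libraries at 72 h were at 21.1 to 31.4 CPM and the untreated ones at 63.4 to 89.7 CPM, while at 24 h both groups overlapped. The replicates of a condition number 3, so no search for single outlying values within a group was made beyond the comparison of libraries in the report.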

How the results depend on the processing

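The counts of called genes among the 34 were within 1.5 times those reported under DESeq2's normalization (RLE) in edgeR and under a minimum of 10 counts in every library or in total. Requiring a log2 change of at least 1 left 9 from NSPs to 24 h, 6 from 24 h to 72 h, 3 with TNF at 24 h and 4 with TNF at 72 h. Without a filter on low counts 10, 14 and 6 genes were called with TNF at 24 h, with TNF at 72 h and in the interaction of TNF with time, while over all genes the calls went from 703, 1919 and 92 to 1374, 2742 and 554. Fitting only the groups compared left 1 with TNF at 24 h, without Ndrg1, Adm, Pfkm and Aldoc, and also lost Pfkl from NSPs to 24 h, Ddit4 from NSPs to 1 week and Pfkm and Ldhb with TNF at 72 h. It added Aldoc and P4ha2 from NSPs to 24 h, Pfkl, Pdk1, Vegfa, P4ha2 and Adm from 24 h to 72 h, Hk2, Pfkm and Vegfa from 72 h to 1 week, Hif1a from NSPs to 1 week and Ndrg1 with TNF at 72 h. DESeq2 called 2 in the interaction, Slc2a1 and Aldoc. Leaving out a single library gave 15 to 20 from NSPs to 24 h, 9 to 16 from 24 h to 72 h, 4 to 8 from 72 h to 1 week, 18 to 23 from NSPs to 1 week, 2 to 7 with TNF at 24 h, 7 to 13 with TNF at 72 h and 1 to 2 in the interaction. Leaving out replicate 1 of the NSPs and of both TNF groups together, a choice made after seeing the data, gave 14 from 72 h to 1 week and 2 in the interaction, where over all genes the calls went from 1331 to 3224 and from 92 to 348. The causes were not tested. No called log2 change reversed its direction under any of these settings.

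Correlations of deviations between same-numbered libraries, taken only for the 6 differences, were -0.416 to 0.303. They do not show that replicate numbers pair the libraries. The TNF groups were not correlated with each other or with the NSPs, and pairing there was not tested. With a replicate block the counts were 17, 14, 6, 22, 5, 10 and 1 in the order of the comparisons, and with replicate 3 at 72 h unpaired, a choice made after seeing its number, the interaction had 0, since Slc2a1 was then at an adjusted p of 0.053 in edgeR (log2 -1.31). That setting also lost the calls of Pfkl and Egln1 from NSPs to 24 h, of Eno2, Pfkfb4 and Egln1 from 24 h to 72 h, of Pfkfb3 and Hif1a from 72 h to 1 week and, with TNF at 72 h, of Pfkm, Pkm (log2 -0.58, edgeR adjusted p = 0.0613) and Ldhb. The block with all numbers lost Pfkl and Egln1 from NSPs to 24 h and Ldhb with TNF at 72 h, and added P4ha2 from NSPs to 24 h and Eno1 and Pfkfb4 with TNF at 72 h. Depth limits statements on Car9, P4ha2, Pfkfb4 and Ankrd37.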
